A study of Homo sapiens with 12 samples.

Results

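PC3 cells given a mutated form of the transcription factor ETV4, ETV4AAA, were compared with PC3 cells given eGFP alone. The comparison holds 4 of the 12 libraries of the study, 2 labelled ETV4AAA and 2 labelled eGFP, chosen by their labels and not by any measured value. PC3 is an established human prostate cancer line from a bone metastasis, without androgen receptor activity and without p53. The ETV4AAA group carried MSCV-ETV4AAA-IRES-eGFP, the control group MSCV-IRES-eGFP, and a further PC3 group, used below only as a second reference, MSCV-ETV4WT-IRES-eGFP with the wild-type factor. All of these cells therefore carried the same virus backbone and the same eGFP reporter, and the labels call the particles lentivirus. Live cells (DAPI-negative) that were positive for eGFP were sorted 1 week after infection, so each library is a sorted pool and not a clone. The sources used here do not name the residues changed in ETV4AAA. RNA was enriched for poly(A) and counted per gene, and the same pair of constructs in a second line, 22Rv1, serves at the end for a test between lines.

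ETV4 is one of the PEA3 factors, a branch of the ETS family with ETV1 and ETV5, which bind DNA at a GGAA core and act downstream of receptor tyrosine kinases and ERK signalling. The amount of PEA3 protein is limited by the ubiquitin ligase COP1, which recognises a short degron, and loss of that control or gene fusion raises PEA3 activity in some prostate tumours. Genes long linked to PEA3 factors encode matrix proteases, the urokinase system, feedback inhibitors of ERK signalling and regulators of epithelial identity. RNA counts do not show protein stability.

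The 4 libraries held 43572713 to 51199207 counts, and mitochondrial transcripts made up 4.3% to 4.9% of them. Levels are given as CPM, counts scaled to a common library size. The controls had 116 and 126 CPM of ETV4, and the ETV4AAA libraries had 223 CPM (replicate 1) and 109 CPM (replicate 2). Only the first of these exceeded the controls (log2 change 0.46 ± 0.33 over both, adjusted p = 0.495), and the counts do not separate introduced from endogenous transcripts. The ETV4AAA libraries also stood further apart than the controls: of 11525 genes with at least 5 CPM, 770 differed by more than 1 log2 unit between the ETV4AAA replicates and 53 between the eGFP replicates. Part of that difference followed GC content. When genes were split into 10 equal groups by GC content, in the group with the highest content replicate 2 was -0.987 log2 units from the eGFP mean at the median and replicate 1 was -0.166, whereas in the lowest group the values were 0.32 and 0.0768. With both libraries the median log2 change ran from 0.214 in the lowest group to -0.584 in the highest. Medians of gene lists below are not corrected for this, and the GC content of the lists was not compared. Results are given with both libraries. Beside a part of them stand changes or calls without single libraries, and counts of called genes after correction for GC content. Levels and changes of single genes are given without that correction, which made some changes smaller and others larger. Whether replicates came from separate cultures is not in the labels, and the spread behind each p-value may therefore be technical.

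**Figure D1:**
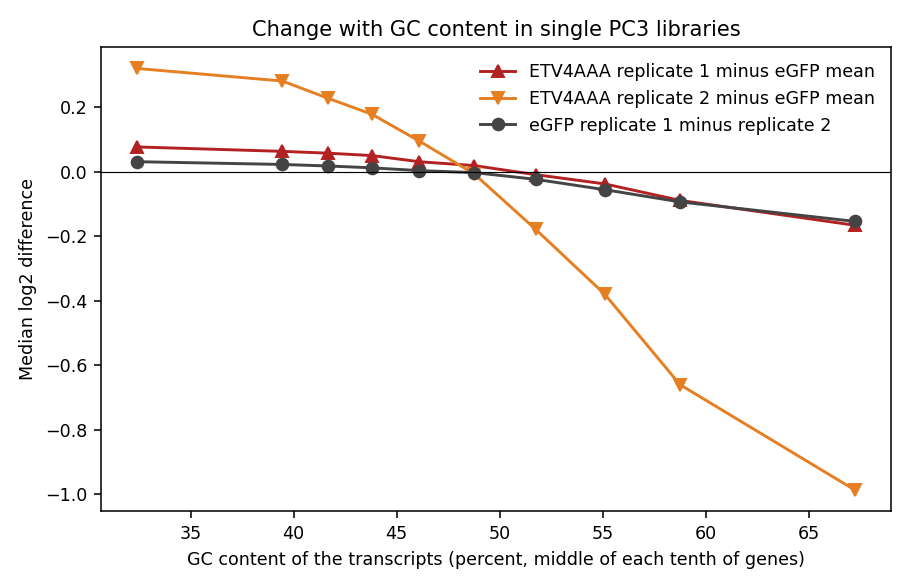
Median log2 difference of genes in 10 groups by GC content of their transcripts (x axis, percent), for each ETV4AAA library minus the eGFP mean and for the eGFP replicates against each other. Replicate 2 of ETV4AAA runs from 0.32 in the lowest group to -0.987 in the highest, and the other lines stay between 0.0768 and -0.166.

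Of 23238 genes tested, 858 passed an adjusted p under 0.05 (3.69%), 569 higher with ETV4AAA (2.45%) and 289 lower (1.24%). Genes that passed are called here, and "rose" or "fell" is used of them alone. The change was at least 1 log2 unit for 312 rises and 167 falls, and at least 2 log2 units for 100 rises and 34 falls, while the median over all genes was 0. In all 858 called genes the libraries of the 2 groups did not overlap, so that separation is no support beyond the call itself. Protein-coding genes gave 731 calls of 15591 tested, and long noncoding genes 102 of 4395. With ETV4AAA replicate 1 left out 2253 genes were called, 1565 of them lower, and with replicate 2 left out 385 were called, 283 higher and 102 lower. With eGFP replicate 1 or 2 left out the counts were 213 and 218. There were 178 genes, 128 higher and 50 lower, that were called with all libraries and again after each of the 4 was left out, and the genes described below belong to these unless their lost calls are given. After GC correction 2057 genes were called, 1359 higher and 698 lower, including 827 of the 858. Calls thus became more frequent over all genes, and list counts after GC correction are to be read beside these totals.

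**Figure D2:**
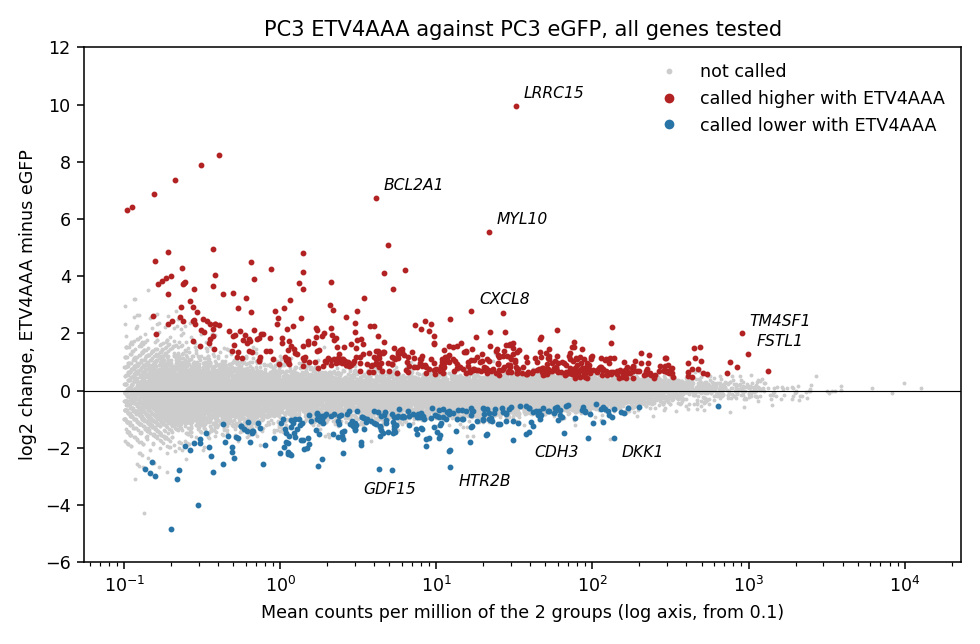
log2 change with ETV4AAA (y axis) against the mean level of both groups in CPM (x axis, log scale, from 0.1) for all genes tested, with called genes in colour. LRRC15 stands highest at 9.95, and TM4SF1 and FSTL1 lie at the right among abundant genes.

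Several of the largest changes were rises of genes with low counts in the controls. LRRC15, a leucine-rich repeat membrane protein of matrix-rich tissue, went from 0.0403 and 0.086 CPM in the controls up to 68.7 and 60.1 CPM, a log2 change of 9.95 ± 0.36 (adjusted p = 1.07e-07). MYL10, a myosin light chain, rose from 0.845 and 0.989 to 48.9 and 36.6 CPM, a log2 change of 5.54 ± 0.26 (adjusted p = 3.77e-06). Both genes were high in each ETV4AAA library, including the one whose ETV4 level matched the controls. BCL2A1, an inhibitor of apoptosis, went from 0.121 and 0.0215 to 7.42 and 8.75 CPM (log2 change 6.75 ± 0.41, adjusted p = 1.07e-05). Its size depends on single controls with few counts: it was 8.39 when eGFP replicate 1 was left out and 6.04 when replicate 2 was, and that of LRRC15 was 10.6 without eGFP replicate 2. PROKR1, a receptor for prokineticins, went from 0.302 and 0.258 to 9.92 and 9.18 CPM (5.08 ± 0.25, adjusted p = 2.33e-06). PDE2A, which degrades cyclic nucleotides, went from 0.684 and 0.602 to 14.3 and 9.54 CPM (4.21 ± 0.27, adjusted p = 1.16e-05). These genes were low in both eGFP libraries and high in both ETV4AAA libraries.

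**Figure D3:**
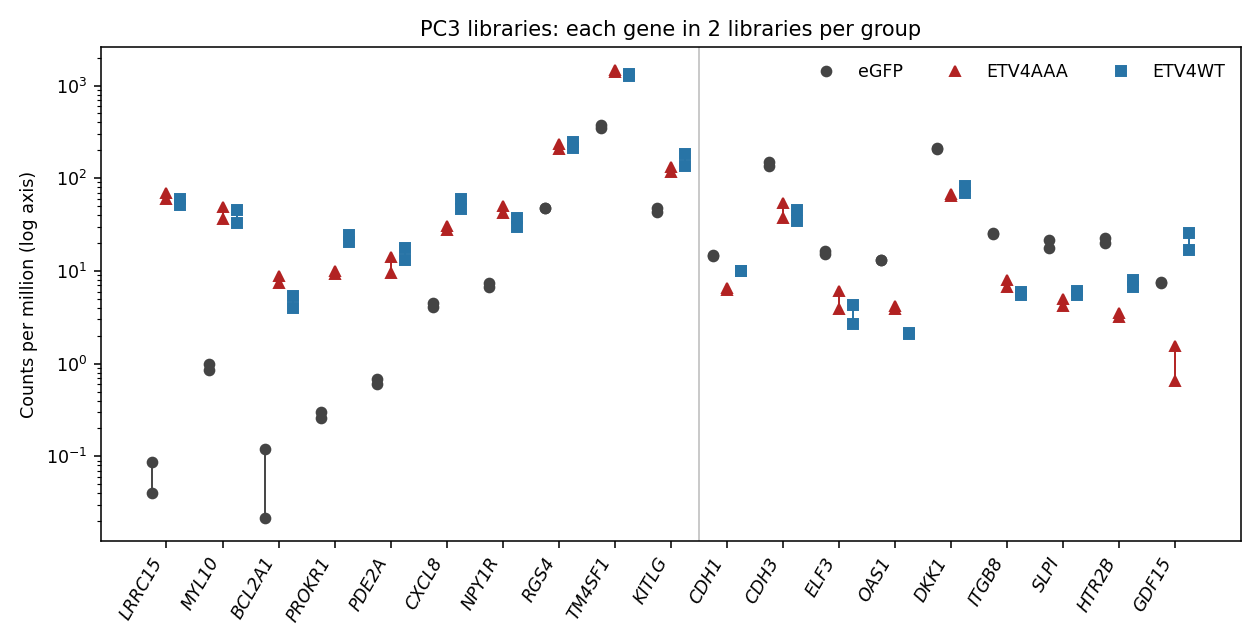
CPM of 19 called genes (x axis) on a log axis in each PC3 library, with 2 points joined by a line per group for eGFP, ETV4AAA and ETV4WT. The 10 genes left of the grey line were higher with ETV4AAA than with eGFP in both libraries, from 0.0403 and 0.086 to 68.7 and 60.1 CPM for LRRC15, and the 9 on the right were lower.

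Positions are those of GENCODE 29 on GRCh38, and every gene placed here is protein-coding. LRRC15 (ENSG00000172061) occupies chromosome 3, 194355247 to 194369743, and MYL10 (ENSG00000106436) chromosome 7, 101613325 to 101629296. BCL2A1 (ENSG00000140379) occupies chromosome 15, 79960889 to 79971446, and PROKR1 (ENSG00000169618) chromosome 2, 68643589 to 68658247. Some genes that moved together are neighbours. CDH3 (ENSG00000062038, 68636189 to 68722616) and CDH1 (ENSG00000039068, 68737225 to 68835548) adjoin on chromosome 16, and both fell. CAV2 (ENSG00000105971, 116287380 to 116508541) and CAV1 (ENSG00000105974, 116524785 to 116561184) adjoin on chromosome 7, and both rose. OAS1 (ENSG00000089127, 112906777 to 112933222), OAS3 (ENSG00000111331, 112938352 to 112973249) and OAS2 (ENSG00000111335, 112978395 to 113011723) follow each other on chromosome 12, and all fell.

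Upstream stretches of 5 genes that rose are printed because each holds letters of a PEA3 site (AGGAAG) or an AP-1 site (TGANTCA), shown in capitals. They are RefSeq sequences of GRCh38.p14, read 5′ to 3′ along the gene, and both strands were searched. Upstream means before the RefSeq start, which can differ from the start in the GENCODE positions above. The BCL2A1 stretch lies before the RefSeq start but within the GENCODE bounds of that gene. LRRC15 is from the minus strand at chr3:194369755-194369821, BCL2A1 from the minus strand at chr15:79971242-79971404, CXCL8 from the plus strand at chr4:73740391-73740468, SCEL from the plus strand at chr13:77535627-77535693, and EMP1 from the plus strand at chr12:13196521-13196714. The sequences are as follows.
LRRC15: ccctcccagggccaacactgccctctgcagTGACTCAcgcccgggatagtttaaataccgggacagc
BCL2A1: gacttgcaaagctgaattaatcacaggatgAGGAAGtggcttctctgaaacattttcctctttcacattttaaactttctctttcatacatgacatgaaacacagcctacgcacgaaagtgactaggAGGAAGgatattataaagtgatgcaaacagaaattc
CXCL8: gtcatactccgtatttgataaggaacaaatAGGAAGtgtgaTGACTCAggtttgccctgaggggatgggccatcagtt
SCEL: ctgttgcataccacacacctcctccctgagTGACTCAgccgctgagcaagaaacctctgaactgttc
EMP1: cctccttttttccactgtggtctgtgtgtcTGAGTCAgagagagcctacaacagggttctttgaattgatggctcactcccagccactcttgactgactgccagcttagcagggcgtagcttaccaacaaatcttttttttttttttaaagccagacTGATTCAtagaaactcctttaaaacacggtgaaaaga

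In windows of 300 bases, from 250 before to 50 after the start, AGGAAG occurred in 32.7% of 9430 genes tested with 1 window in the table, in 34.5% of 284 genes called higher and in 34.2% of 120 called lower. TGANTCA occurred in 5.13% of all, 8.8% of higher and 8.33% of lower genes. The longer ETS letters CCGGAAGT occurred in 8.11% of all, 3.87% of higher and 1.67% of lower genes. Short motifs of this kind are common, so a match describes the letters and not a bound site.

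TM4SF1, a tetraspanin-like surface protein, was already abundant at 374 and 348 CPM with eGFP and reached 1414 and 1478 CPM with ETV4AAA (log2 change 2.00 ± 0.13, adjusted p = 1.16e-05). NPY1R, a receptor for neuropeptide Y, went from 7.35 and 6.75 to 41.7 and 50.8 CPM (2.71 ± 0.18, adjusted p = 1.57e-05). RGS4, which shortens G-protein signalling, went from 47.6 and 47.2 to 206 and 233 CPM (2.21 ± 0.17, adjusted p = 4.48e-05). In each of these genes the lower ETV4AAA library exceeded the higher control several-fold. CACNA2D2, an auxiliary subunit of calcium channels, went from 0.443 and 0.559 to 10.6 and 6.79 CPM (4.12 ± 0.32, adjusted p = 4.48e-05). SOCS2, a feedback inhibitor of cytokine receptors, went from 3.28 and 2.88 to 14.3 and 16.7 CPM (2.33 ± 0.19, adjusted p = 6.08e-05). CARD8, an inflammasome protein, went from 10 and 11.3 to 43.2 and 45.7 CPM (2.06 ± 0.14, adjusted p = 2.57e-05). The transcription factor TBX18 rose by 2.31 ± 0.17 log2 units and the aldehyde oxidase AOX1 by 2.13 ± 0.18, with adjusted p-values of 4.48e-05 and 8.34e-05. Tandem-pore potassium channel genes went both ways, KCNK15 from 1.27 and 1.31 up to 7.29 and 5.14 CPM and KCNK2 from 6.9 and 7.44 down to 2.65 and 2.61 CPM.

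Growth factors rose in a small number of cases. Of 38 growth factors outside the EGF family 4 rose and 1 fell, with a list median of -0.0653. FGF1, which activates all FGF receptors, went from 2.88 and 2.99 to 12.2 and 14 CPM (2.16 ± 0.22, adjusted p = 0.000274). FGF5 went from 4.69 and 4.66 to 13.4 and 16.1 CPM (1.66 ± 0.21, adjusted p = 0.00113). KITLG, the ligand of the receptor KIT, went from 48.2 and 43.6 to 116 and 134 CPM (1.44 ± 0.15, adjusted p = 0.000369). The other members that changed were IGFBP3, a carrier of insulin-like growth factors, which rose, and the FGF carrier FGFBP1, which fell. KDR, a receptor for vascular endothelial growth factor, rose from 0.866 and 0.645 to 2.65 and 3.49 CPM (2.01 ± 0.26, adjusted p = 0.00229). It was 1 of 2 receptor tyrosine kinases outside the ERBB family that rose, of 32 tested, with ALK, and none fell. ALK lost its call without each of the 4 libraries (adjusted p = 0.0808 and 0.0684 without ETV4AAA replicate 1 and 2, and 0.257 and 0.341 without eGFP replicate 1 and 2). After GC correction 7 growth factors rose and 2 fell, and 5 receptor tyrosine kinases rose and 4 fell. FGFBP1 lost its call without ETV4AAA replicate 2 (adjusted p = 0.151) and without eGFP replicate 1 or 2 (0.105 and 0.21), and IGFBP3 without eGFP replicate 1 (0.0699).

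The list of ERK pathway output and feedback genes had 8 rises and 0 falls among 37 members (21.6% called), with a median of 0.093 against 0 for all genes. HBEGF, an EGF-family ligand, went from 14.8 and 14 to 45.8 and 41.9 CPM (1.61 ± 0.15, adjusted p = 0.000174). JUN, a component of AP-1, went from 37.1 and 39.1 to 120 and 98.3 CPM (1.52 ± 0.17, adjusted p = 0.000531). The membrane protein EMP1 went from 189 and 176 to 400 and 404 CPM (1.14 ± 0.11, adjusted p = 0.000266), and the ephrin receptor EPHA4 rose by 1.36 ± 0.17 log2 units (adjusted p = 0.000986). Both ETV4AAA libraries lay above both controls for all 4 of these genes, as for every called rise. ERRFI1, an inhibitor of EGF receptor kinase that is counted in the EGF family list, rose from 124 and 122 to 233 and 266 CPM (1.02 ± 0.13, adjusted p = 0.00121). The feedback inhibitors moved less. SPRY4 went from 205 and 209 to 391 and 367 CPM (0.87 ± 0.13), SPRED1 rose by 0.80 ± 0.13, SPRY2 by 0.69 ± 0.12 and the ERK phosphatase DUSP6 by 0.48 ± 0.12 log2 units. Without eGFP replicate 1 or 2 these 4 lost their calls, with adjusted p-values of 0.066 and 0.0597 for SPRY4, 0.0803 and 0.0917 for SPRED1, 0.127 and 0.0837 for SPRY2, and 0.271 and 0.367 for DUSP6, so that 4 rises remained. DUSP6 lost it also without ETV4AAA replicate 2 (0.35). After GC correction 15 genes of the list rose and 2 fell. ETV5 and ETV1, PEA3 factors and members of this list, stood at 193 and 191 against 167 and 168 CPM (adjusted p = 0.446) and at 71 and 76.2 against 80 and 77.8 CPM (adjusted p = 0.718).

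Of 29 genes that the literature reports as PEA3 targets, 6 rose and 1 fell, with a median of 0.191. The rises were MMP3, a stromelysin, SNAI2, a repressor of epithelial genes, PLAU, the urokinase, TGFBR2, RUNX1 and the membrane protease MMP14, and the fall was CDH1. MMP3 went from 0.624 and 0.946 to 2.86 and 3.01 CPM (1.90 ± 0.25, adjusted p = 0.00285), and PLAU from 64.7 and 66.7 to 125 and 110 CPM (0.84 ± 0.16, adjusted p = 0.0126). As for every called gene, the libraries of the groups did not overlap for either, but the rises of this list rested on the number of controls. When eGFP replicate 1 was left out there were 0 rises (adjusted p = 0.0507 for MMP3 and 0.169 for PLAU), with replicate 2 left out there was 1 (0.0159 for MMP3 and 0.149 for PLAU), and without ETV4AAA replicate 2 there were 4. CDH1 kept its call in each case. Without ETV4AAA replicate 1 there were 3 falls, and after GC correction 9 rises and 2 falls.

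Of 17 genes of the plasminogen system and serpins 5 rose and 0 fell (29.4% called, median 0.425), and 1 of these, SERPINB3, kept its call without each library. SERPINB3, which inhibits cysteine and serine proteases, went from 0.101 and 0.0645 to 1.31 and 1.22 CPM (3.89 ± 0.36, adjusted p = 0.000587). A list of 33 squamous and cornified envelope genes had 16 tested members, of which 4 rose and 0 fell, with a median of 7.49e-05. SERPINB3 is counted in both lists. TGM2, a protein crosslinking enzyme, went from 0.866 and 0.774 to 12 and 7.29 CPM (3.56 ± 0.30, adjusted p = 8.34e-05). SCEL, a precursor of the cornified envelope, went from 3.48 and 3.35 to 12.9 and 16.1 CPM (2.09 ± 0.27, adjusted p = 0.00183). SERPINB8, the most abundant serpin that rose, went from 45.4 and 45.8 to 69.5 and 75.7 CPM and lost its call without ETV4AAA replicate 2 (adjusted p = 0.178) and without either eGFP library (0.239 and 0.241). The serpin list had 1 rise without eGFP replicate 1 or 2 and 2 rises without ETV4AAA replicate 2. After GC correction it had 7 rises and 3 falls, and the squamous list 5 rises and 0 falls.

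Attachment genes changed in both directions. COL17A1, a collagen of hemidesmosomes, went from 0.684 and 0.645 to 7.19 and 5.26 CPM (3.22 ± 0.28, adjusted p = 8.34e-05). ITGB3, the beta chain of the vitronectin receptor, went from 1.73 and 1.03 to 7.11 and 6.17 CPM (2.26 ± 0.23, adjusted p = 0.000311). ITGB8, another integrin beta chain and an activator of latent TGF-beta, went the other way, from 25.9 and 24.9 to 6.72 and 8.06 CPM (-1.78 ± 0.16, adjusted p = 9.26e-05). Of 22 integrin subunits 2 rose and 1 fell, and 1 rise, that of ITGB3, kept its call without each library. FBN1, the fibril protein fibrillin, rose by 1.5 ± 0.16 log2 units (adjusted p = 0.000364), NT5E, the surface enzyme CD73, by 1.21 ± 0.14 (adjusted p = 0.000553) and MYLK, a kinase of myosin light chains, by 1.45 ± 0.14 (adjusted p = 0.000184). Of the 36 genes of the epithelial-mesenchymal transition list 3 rose and 3 fell, with a median of -0.145, so that list had no single direction. SPARC, a matricellular protein among its falls, went from 70.1 and 68.8 to 47.5 and 43.9 CPM (-0.60 ± 0.13, adjusted p = 0.0199), and its call was lost without ETV4AAA replicate 2 (0.149) and without eGFP replicate 1 or 2 (0.205 and 0.188). Without each of these 3 libraries in turn no fall of the list remained, and after GC correction it had 10 rises and 7 falls and the integrin list 5 rises and 1 fall. CAV2, a caveolin, rose from 40.1 and 38.4 to 108 and 118 CPM (1.52 ± 0.18, adjusted p = 0.000587). CAV1 rose from 182 and 182 to 392 and 421 CPM (1.16 ± 0.18, adjusted p = 0.00343), with adjusted p-values of 0.0639 and 0.062 without eGFP replicate 1 and 2.

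Among epithelial junction genes and epithelial regulators 8 of 43 fell and 0 rose (18.6% called), with a median of -0.239. CDH1, the E-cadherin of adherens junctions, went from 14.8 and 14.5 to 6.21 and 6.53 CPM (-1.20 ± 0.12, adjusted p = 0.000258). CDH3, the P-cadherin, went from 135 and 150 to 54.3 and 36.9 CPM (-1.65 ± 0.19, adjusted p = 0.000613). EHF and ELF3, epithelial members of the ETS family, went from 84.3 and 77 to 36.7 and 42.4 CPM (-1.03 ± 0.14, adjusted p = 0.0018) and from 15.1 and 16.3 to 6.08 and 3.85 CPM (-1.66 ± 0.25, adjusted p = 0.00333). For each of these genes both ETV4AAA libraries were below the lower control, as for every called fall. SPINT1, an inhibitor of the protease matriptase, went from 3.82 and 3.87 to 1.44 and 0.932 CPM (-1.68 ± 0.25, adjusted p = 0.00284). The tight junction genes CLDN1 and TJP3 and the splicing regulator ESRP1 completed the 8, with changes of -1.01 ± 0.18, -1.83 ± 0.37 and -0.60 ± 0.15. Without eGFP replicate 1 or 2 these 3 lost their calls, with adjusted p-values of 0.0896 and 0.0768 for CLDN1, 0.0935 and 0.118 for TJP3, and 0.285 and 0.264 for ESRP1. TJP3 lost it also without ETV4AAA replicate 2 (0.159), and ESRP1 without either ETV4AAA library (0.0738 and 0.114). The other 35 members did not pass. Of 13 desmosome genes 0 were called by edgeR or limma-voom. DESeq2 called 1 higher and 2 lower, against 769 and 306 of all genes. At an unadjusted p under 0.05 in edgeR, 1 was higher and 2 lower, against 1963 and 1785 of all 23238 genes. After GC correction 9 of the 43 fell and 3 rose.

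Other genes of epithelial and luminal identity moved in both directions. Of 28 androgen receptor targets and luminal genes 3 rose (AGR2, DPP4 and RAB3B) and 3 fell (FOXA1, CD24 and TRPM8), with a median of 0. Of the rises 1 remained without ETV4AAA replicate 2 and 0 without eGFP replicate 1 or 2, where 2 falls remained. Without ETV4AAA replicate 1 there were 6 falls, and after GC correction 4 rises and 5 falls. FOXA1, a pioneer factor of luminal prostate cells, went from 166 and 163 to 85.1 and 96 CPM (-0.86 ± 0.12, adjusted p = 0.00218). The surface glycoprotein CD24 went from 103 and 101 to 48.3 and 56.7 CPM (-0.96 ± 0.14, adjusted p = 0.00228). HOXA13, a posterior homeobox gene, fell by 1.09 ± 0.15 (adjusted p = 0.00179). SLPI, a secreted protease inhibitor, went from 17.7 and 21.6 to 4.97 and 4.16 CPM (-2.10 ± 0.19, adjusted p = 0.000109). The aldehyde dehydrogenase ALDH3A1 went from 8.47 and 9.71 to 1.71 and 0.932 CPM (-2.77 ± 0.31, adjusted p = 0.000455). KRT20, an intestinal and urothelial keratin, went up instead, from 6.68 and 6.94 to 20.1 and 20.4 CPM (1.57 ± 0.20, adjusted p = 0.00103).

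**Figure D4:**
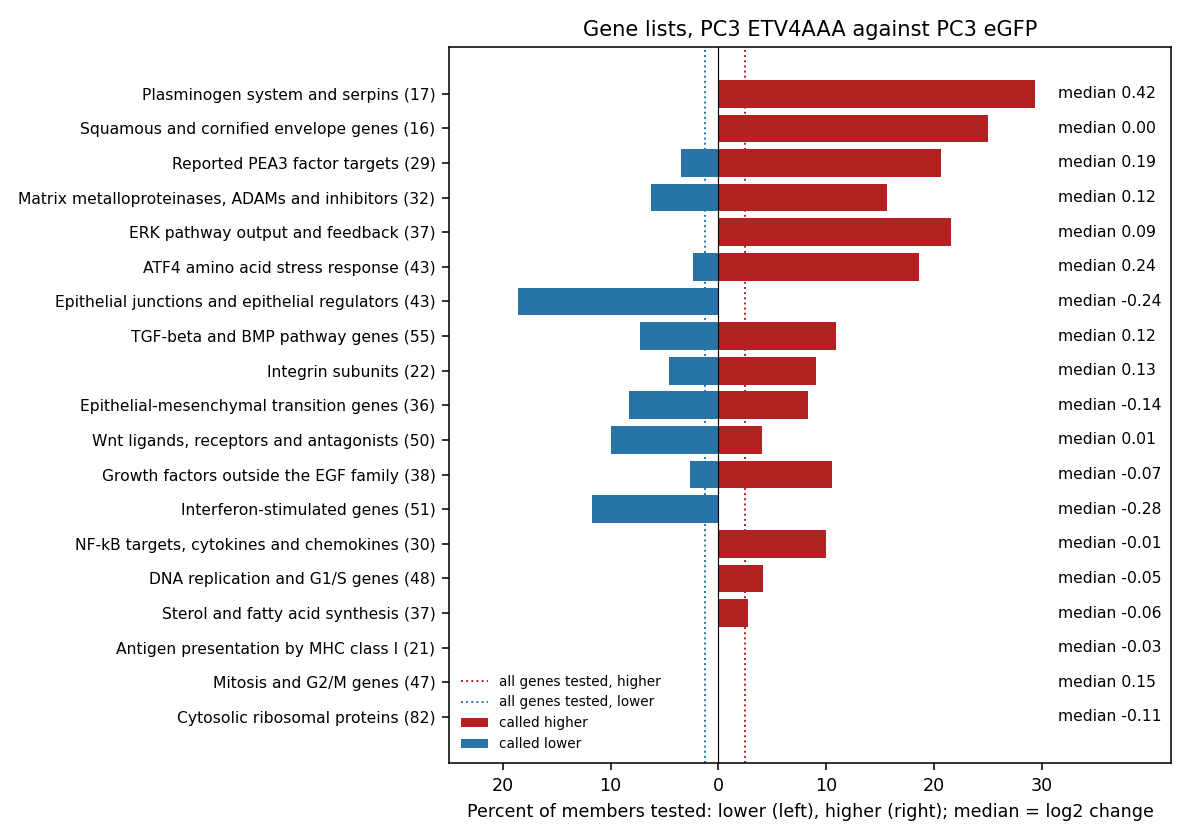
Percent of the tested members of 19 gene lists called lower (left, blue) and higher (right, red) with ETV4AAA, with the number tested in parentheses and the median log2 change at the right. Dotted lines mark 1.24% and 2.45%, the shares of all genes tested, and the ribosomal, mitotic and MHC class I lists have no bar.

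Interferon-stimulated genes had 6 falls and 0 rises among 51 members (11.8% called), with a median of -0.275. OAS1, an antiviral sensor of double-stranded RNA, went from 13.1 and 13.2 to 4.21 and 3.9 CPM (-1.69 ± 0.23, adjusted p = 0.00186). OAS3 of the same family went from 34.2 and 36.5 to 17.2 and 14.5 CPM (-1.16 ± 0.18, adjusted p = 0.00333). IFIT1, which binds foreign RNA caps, went from 58.8 and 57.2 to 30 and 33.5 CPM (-0.87 ± 0.17, adjusted p = 0.0133). The other falls were IFI44L, OAS2 and OASL. Without eGFP replicate 1 or 2 only 2 members were called, without ETV4AAA replicate 2 there were 4, without ETV4AAA replicate 1 there were 9, and after GC correction 11 fell and 2 rose. OAS3 lost its call without eGFP replicate 2 (adjusted p = 0.0515), IFIT1 without eGFP replicate 1 or 2 (0.145 and 0.124) and IFI44L without eGFP replicate 1 (0.101). OAS2 and OASL lost theirs without ETV4AAA replicate 2 (0.0903 and 0.115), eGFP replicate 1 (0.16 and 0.133) or eGFP replicate 2 (0.0815 and 0.151). Of 21 genes for antigen presentation by MHC class I, edgeR called 0. DESeq2 and limma-voom each called 1 higher, against 769 and 656 of all genes. At an unadjusted p under 0.05 in edgeR, 3 were higher and 1 lower, against 1963 and 1785 of all 23238 genes.

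The upstream stretches of 3 of these interferon genes are shown because each holds a pair of GAAA runs with NN between them (both strands searched), more than once, and the matches are in capitals. IFIT1 is at chr10:89392477-89392559, IFI44L at chr1:78620254-78620414 and OAS3 at chr12:112938301-112938473, all on the plus strand of GRCh38.p14 in RefSeq. The OAS3 stretch ends before the RefSeq start but crosses the GENCODE start given above. Its last match lies within the GENCODE bounds of the gene.
IFIT1: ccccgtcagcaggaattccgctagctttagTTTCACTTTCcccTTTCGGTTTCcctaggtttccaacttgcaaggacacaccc
IFI44L: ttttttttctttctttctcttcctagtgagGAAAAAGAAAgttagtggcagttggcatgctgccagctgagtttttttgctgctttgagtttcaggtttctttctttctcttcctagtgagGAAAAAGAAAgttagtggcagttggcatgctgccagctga
OAS3: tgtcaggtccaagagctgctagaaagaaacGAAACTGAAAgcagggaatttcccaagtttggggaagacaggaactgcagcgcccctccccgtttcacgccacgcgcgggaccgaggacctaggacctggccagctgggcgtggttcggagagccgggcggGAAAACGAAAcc
The letters occurred in 2.91% of all 9430 windows, in 2.82% of those of genes called higher and in 5% of those of genes called lower.

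Of 43 genes of the ATF4 response to amino acid shortage 8 rose and 1 fell (20.9% called), with a median of 0.243. ATF3, a stress-induced transcription factor, went from 3.54 and 2.88 to 8.57 and 7.67 CPM (1.34 ± 0.15, adjusted p = 0.000455). CTH, an enzyme that makes cysteine, went from 27.2 and 25.8 to 57.2 and 59.9 CPM (1.14 ± 0.14, adjusted p = 0.000621). ASNS, the asparagine synthetase, went from 1.59 and 1.74 to 6.16 and 4.02 CPM (1.61 ± 0.23, adjusted p = 0.00229). Both ETV4AAA libraries exceeded both controls for these genes, as for every called rise. The replicates of ASNS differed more than those of the others, and its change was 1.27 without ETV4AAA replicate 1 and 1.86 without replicate 2. After GC correction 18 genes of the list rose and 1 fell. CHAC1, which degrades glutathione, went from 2.6 and 2.64 to 21 and 7.55 CPM (2.45 ± 0.43, adjusted p = 0.00759), and SESN2, an inhibitor of growth signalling, at 6.86 and 6.92 and at 29.7 and 14.3 CPM (1.68 ± 0.29, adjusted p = 0.00748). For both genes ETV4AAA replicate 1 was more than 1 log2 unit above replicate 2, and without replicate 1 the changes were 1.53 and 1.06. Without eGFP replicate 1 or 2 the adjusted p-values were 0.0925 and 0.0948 for CHAC1 and 0.0892 and 0.0917 for SESN2, and 3 of the 8 rises remained. GDF15, a secreted stress cytokine that ATF4 and p53 can both induce, went down, from 7.51 and 7.44 to 1.56 and 0.646 CPM (-2.73 ± 0.38, adjusted p = 0.00197). The argininosuccinate synthase ASS1, which is not counted in this list, fell from 45.6 and 49.3 to 17.7 and 11.1 CPM (-1.72 ± 0.24, adjusted p = 0.0018). CHAC1 holds the letters TTNCATCA, those of an ATF4-C/EBP element, in capitals in the stretch chr15:40953232-40953299, plus strand.
CHAC1: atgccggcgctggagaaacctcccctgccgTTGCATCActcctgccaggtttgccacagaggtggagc
These letters occurred in 1.92% of all windows, in 5.99% of those of genes called higher and in 5% of those of genes called lower.

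Genes of the TGF-beta and BMP pathways moved in both directions, 6 up and 4 down of 55 (18.2% called, median 0.118), with changes among antagonists and co-receptors. TGFBR3, a co-receptor that presents TGF-beta ligands, went from 10.9 and 11.5 to 32.7 and 33.3 CPM (1.56 ± 0.15, adjusted p = 0.000151). FSTL1, a secreted modulator of BMP signals, was abundant and went from 588 and 580 to 1350 and 1475 CPM (1.27 ± 0.14, adjusted p = 0.000443). FST, which sequesters activins, went from 31 and 30.9 to 10.6 and 10.5 CPM (-1.56 ± 0.18, adjusted p = 0.000553). BAMBI, a decoy receptor, went from 3.52 and 3.61 to 1.17 and 1.12 CPM (-1.63 ± 0.19, adjusted p = 0.000599). The secreted ligand BMP3, which is not counted in this list, went from 58 and 53.4 to 18.9 and 19.7 CPM (-1.53 ± 0.20, adjusted p = 0.00113). Without eGFP replicate 1 or 2, 2 rises and 3 falls of the list were called, without ETV4AAA replicate 1 there were 7 falls, and after GC correction 16 rises and 6 falls. Wnt pathway genes had 2 rises and 5 falls of 50 (14% called, median 0.0133). DKK1, a secreted Wnt antagonist, went from 211 and 205 to 64.4 and 67.5 CPM (-1.66 ± 0.14, adjusted p = 6.97e-05), and LGR5, an R-spondin receptor, from 12.8 and 14.4 to 5.28 and 6.1 CPM (-1.26 ± 0.17, adjusted p = 0.0017). FZD4, a Wnt receptor, went up from 159 and 148 to 289 and 309 CPM (0.96 ± 0.12, adjusted p = 0.000851), and LEF1, a nuclear effector, rose by 1.18 ± 0.15 (adjusted p = 0.00095). After GC correction 5 genes of the Wnt list rose and 3 fell. These 4 named genes kept their calls without each library, and 2 rises and 2 falls remained without each of ETV4AAA replicate 2, eGFP replicate 1 and eGFP replicate 2.

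Inflammatory and lipid mediators gave single large changes. CXCL8, a neutrophil chemokine, went from 4.47 and 4.08 to 27.8 and 30.6 CPM (2.77 ± 0.21, adjusted p = 7.17e-05). It was 1 of 3 rises among 30 genes of the NF-kB, cytokine and chemokine list (10% called, median -0.0051), with the feedback inhibitors NFKBIA and TNFAIP3, and none fell. Without either eGFP library the call of CXCL8 alone remained. NFKBIA went from 19.3 and 20.6 to 39.4 and 35.4 CPM (0.91 ± 0.15, adjusted p = 0.00476), with adjusted p-values of 0.0903 and 0.0616 without eGFP replicate 1 and 2. HPGD, which inactivates prostaglandins, was abundant and went from 241 and 232 to 602 and 723 CPM (1.48 ± 0.17, adjusted p = 0.000487). HTR2B, a serotonin receptor, went from 22.5 and 20 to 3.18 and 3.51 CPM (-2.67 ± 0.34, adjusted p = 0.00114). CREB3L1, a membrane-bound transcription factor of the secretory pathway, went from 91.2 and 103 to 40.7 and 28.8 CPM (-1.48 ± 0.22, adjusted p = 0.00255). ANXA5, a phospholipid-binding protein, rose from 508 and 501 to 958 and 1064 CPM (1.00 ± 0.12, adjusted p = 0.000904).

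Growth and housekeeping lists held few or no calls. Of 47 mitosis genes edgeR, DESeq2 and limma-voom each called 0, and the median was 0.154. At an unadjusted p under 0.05 in edgeR, 9 were higher and 0 lower, against 1963 and 1785 of all 23238 genes. Of 48 DNA replication genes 2 rose and 0 fell, with a median of -0.0534; without ETV4AAA replicate 2, eGFP replicate 1 or eGFP replicate 2 there was 1. E2F8, a repressor of the E2F family, went from 1.21 and 1.18 to 3.16 and 3.73 CPM (1.52 ± 0.17, adjusted p = 0.000487). Of 82 cytosolic ribosomal protein genes 0 were called by edgeR, DESeq2 or limma-voom. At an unadjusted p under 0.05 in edgeR 2 were lower, against 1785 of all 23238 genes. Leaving out ETV4AAA replicate 1 gave 11 lower ribosomal genes and 9 lower replication genes. Sterol and fatty acid synthesis had 1 rise of 37, which was lost without ETV4AAA replicate 2, eGFP replicate 1 or eGFP replicate 2. There were 10 falls without ETV4AAA replicate 1, and 2 rises and 1 fall after GC correction. After GC correction 3 mitosis genes and 4 MHC class I genes rose, 2 replication genes rose and 2 fell, and 0 cytosolic ribosomal genes were called.

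Many cell type markers were low in all 4 libraries, but several were not. KLK3, KLK2 and FOLH1, defining genes of luminal prostate cells, were at 0. Other luminal markers were abundant, HOXB13 at 584 to 813 CPM, KRT18 at 181 to 314 CPM and KRT8 at 55.2 to 124 CPM. The basal marker KRT15 stood at 9.52 to 20.6 CPM. HOXB13, KRT18, KRT8 and KRT15 were not called. The immune markers CD3D and TYROBP were at 0, and the 5 immune markers summed to 0.143 to 0.344 CPM. Of 3 endothelial markers PECAM1 rose from 13.6 and 12.4 to 20.2 and 22.4 CPM (0.71 ± 0.16, adjusted p = 0.0357), and CDH5 and VWF stayed at or below 0.123 CPM. The call of PECAM1 was lost without ETV4AAA replicate 2 (0.234), eGFP replicate 1 (0.2) or eGFP replicate 2 (0.361). The 6 fibroblast and smooth muscle markers summed to 33.3 to 34 CPM with eGFP and 21.6 to 24 CPM with ETV4AAA, and none of them was called. Of a longer list of 15 stromal and endothelial genes 3 rose, KDR, RGS5 and PECAM1, and of 7 immune genes tested 1 rose, LYZ. RGS5 and LYZ lost their calls without eGFP replicate 1 (0.0531 and 0.0532) or 2 (0.0765 and 0.0753). The part of other cells in the results was not tested. Fewer cells of a type and less RNA per cell cannot be told apart in such pools.

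A direct comparison of ETV4AAA with ETV4WT in PC3, which by their labels both carry an ETV4 construct, called 2550 genes (11%), 848 higher (3.65%) and 1702 lower (7.32%) with ETV4AAA. ETV4 itself stood at 215 and 112 CPM in replicates 1 and 2 of ETV4WT, so that, as with ETV4AAA, replicate 2 was not above the eGFP libraries. The effects against eGFP, given beside it, share the same eGFP libraries. The counts were 1648 without ETV4AAA replicate 1 and 1682 without replicate 2, and with upper-quartile scaling 414 were higher and 2018 lower. LRRC15 and MYL10 did not pass this test, with values of 60.1 and 51.6 CPM for LRRC15 and 45.2 and 33.2 CPM for MYL10 with ETV4WT, and differences of 0.21 ± 0.20 and 0.13 ± 0.20 log2 units (adjusted p = 0.614 and 0.791). A p above the threshold does not show that the constructs act alike. Genes of the ATF4 response were lower with ETV4AAA in 34 of 43 cases and higher in 0, with a median difference of -1.01 against 0.00374 over all genes. ATF3 stood at 34.9 and 38.9 CPM with ETV4WT, a difference of -2.18 ± 0.14 (adjusted p = 5.77e-06), and SESN2 at 100 and 71.2 CPM, a difference of -1.96 ± 0.29 (adjusted p = 0.000886). DNA replication genes were higher with ETV4AAA in 22 of 48 cases and lower in 0 (median difference 0.434). HOX genes were lower in 28 of 35 cases and higher in 1 (median difference -2.22), whereas against eGFP 1 HOX gene, HOXC10, rose and 1, HOXA13, fell, and the rise was lost without each of the 4 libraries.

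**Figure D5:**
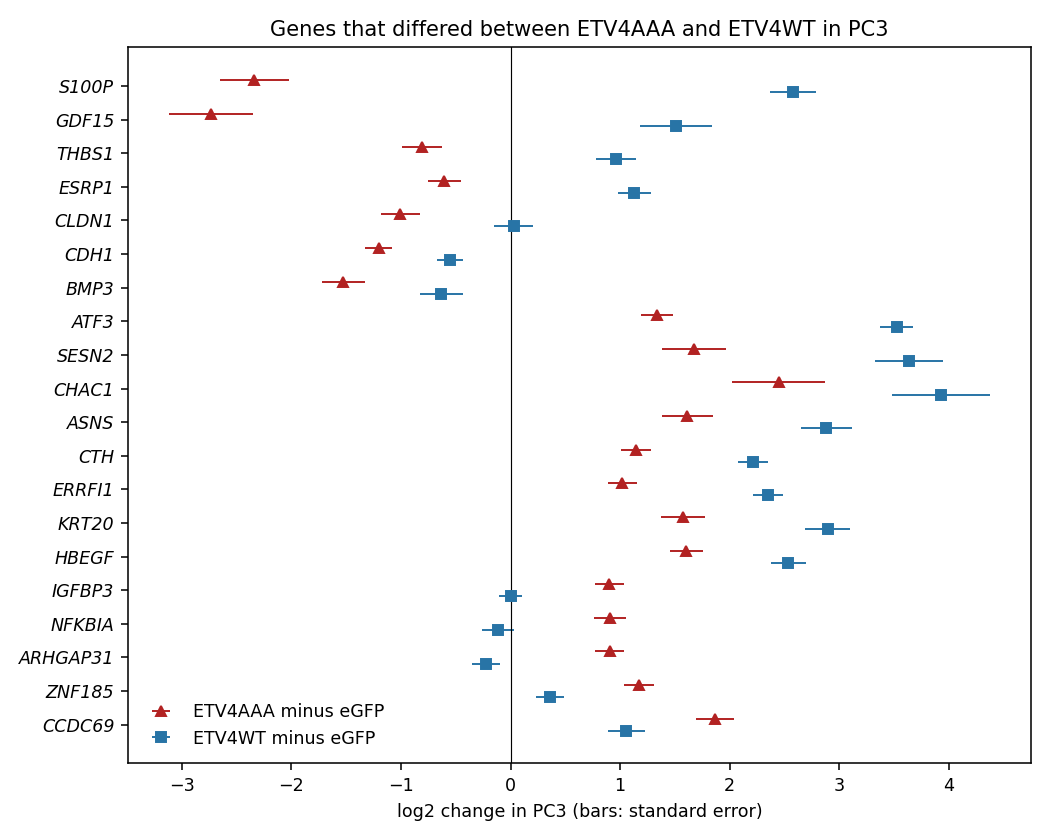
log2 changes against eGFP with standard errors for ETV4AAA and ETV4WT in PC3, for 20 genes that differed between the 2 constructs in the direct test; the effects share the eGFP libraries. S100P, GDF15, THBS1 and ESRP1 lie left of 0 with ETV4AAA and right of 0 with ETV4WT, and the ATF4 genes lie further right with ETV4WT.

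Some genes went in opposite directions with the 2 constructs. S100P, a calcium-binding protein, had 0.986 and 0.709 CPM in the controls, 0.144 and 0.191 CPM with ETV4AAA and 4.96 and 5.23 CPM with ETV4WT, a difference between constructs of -4.92 ± 0.27 (adjusted p = 2.43e-06). GDF15 stood at 25.7 and 16.8 CPM with ETV4WT, and the difference was -4.24 ± 0.39 (adjusted p = 3.24e-05). ESRP1 had 20.1 and 19.8 CPM in the controls, 12.9 and 13.4 CPM with ETV4AAA and 37.2 and 50.3 CPM with ETV4WT (difference -1.73 ± 0.15, adjusted p = 2.35e-05). THBS1, a matrix glycoprotein, had 9.02 and 9 CPM in the controls, 5.47 and 4.83 CPM with ETV4AAA and 16 and 19.1 CPM with ETV4WT (difference -1.77 ± 0.19, adjusted p = 7.81e-05). For these 4 genes every ETV4AAA library was below, and every ETV4WT library above, both controls. The fall of THBS1 against eGFP was lost without ETV4AAA replicate 2 (0.183) and without eGFP replicate 1 or 2 (0.205 and 0.219). Other falls were deeper with ETV4AAA: CDH1 stood at 9.9 and 10.1 CPM and CLDN1 at 25.6 and 33.5 CPM with ETV4WT, and the differences were -0.65 ± 0.12 (adjusted p = 0.00426) and -1.03 ± 0.18 (adjusted p = 0.00277). Several rises were larger with ETV4AAA. ZNF185, a LIM protein of actin structures, went from 50.2 and 51.6 CPM with eGFP to 123 and 106 CPM and stood at 68.6 and 62 CPM with ETV4WT (difference 0.81 ± 0.13, adjusted p = 0.00183). CCDC69 had 7.23 and 8.27 CPM in the controls, 30.6 and 25.9 CPM with ETV4AAA and 17.3 and 14.9 CPM with ETV4WT (difference 0.81 ± 0.17, adjusted p = 0.00798). DDX4, a germ-cell RNA helicase, was higher by 1.41 ± 0.23 and FGF5 by 0.91 ± 0.21 log2 units (adjusted p = 0.00276 and 0.0141). ARHGAP31, a regulator of small GTPases, had 64.3 and 67.8 CPM in the controls, 130 and 118 CPM with ETV4AAA and 58.2 and 54.8 CPM with ETV4WT (difference 1.13 ± 0.13, adjusted p = 0.000164), and its rise against eGFP was lost without eGFP replicate 1 (0.0643). HBEGF, ERRFI1 and KRT20 were lower with ETV4AAA than with ETV4WT, with differences of -0.93 ± 0.15, -1.33 ± 0.13 and -1.32 ± 0.19 (adjusted p = 0.00172, 5.79e-05 and 0.000896).

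In 22Rv1, a line with luminal prostate genes, ETV4AAA against eGFP called 7395 genes (31.8%), 4054 higher (17.4%) and 3341 lower (14.4%). The effect differed between lines for 3766 genes (16.2%), 2203 with a more positive effect in 22Rv1 (9.48%) and 1563 with a more negative one (6.73%). Without PC3 eGFP replicate 1 or 2 the numbers were 2390 and 2317. In 22Rv1 ETV4 rose from 31.2 and 24.9 to 390 and 281 CPM, whereas in PC3 it was not called (adjusted p = 0.495). Its change was more positive in 22Rv1 (difference 3.12 ± 0.48, adjusted p = 0.000831). The size of the ETV4 change and the line cannot be told apart. Of the 48 DNA replication genes 46 fell in 22Rv1 and 0 rose, and the effect was more negative than in PC3 for 37. Of the 47 mitosis genes 46 fell, and 43 differed between lines. Of the 43 ATF4 genes 28 fell and 3 rose in 22Rv1, and 27 had a more negative effect than in PC3. Of the 51 interferon-stimulated genes 22 rose and 4 fell in 22Rv1, and 16 had a more positive and 0 a more negative effect. LRRC15, which rose most among the genes named in PC3, had 0.0821 and 0.226 CPM in the 22Rv1 controls and 0.0444 and 0.0949 CPM with ETV4AAA there (adjusted p = 0.174). PROKR1 and JUN rose in both lines, by 4.74 ± 0.30 and 1.45 ± 0.17 log2 units in 22Rv1, and did not pass the test of a difference (adjusted p = 0.74 and 0.911).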

How the data were processed

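The deposited table holds raw counts per gene for 12 libraries, made by the authors. STAR 2.5.3a, FastQC 0.11.9 and the build GRCh38 are given per the submitters' processing notes. No source used here names the counting program, its strand setting or its annotation, so reads of overlapping or near-identical genes may be assigned to either. Of 58302 gene IDs, 99.55% matched GENCODE 29, which gave symbols and positions. Genes were filtered with filterByExpr by group, scaled with TMM and fitted in R 4.3.3 with edgeR 4.0.16 (quasi-likelihood, 1 mean per group, all 12 libraries, 6 residual degrees of freedom, biological coefficient of variation 0.149). Adjusted p-values are Benjamini-Hochberg values over 23238 genes; the standard error is the log2 change divided by the square root of F. CPM uses TMM-scaled library sizes, and no intervals for single libraries are given. GC content was taken from GENCODE transcripts. Promoter letters were searched in RefSeq windows. Alternatives used DESeq2 1.42.0, limma 3.58.1 and the settings in the closing section. The fit was also run on simulated counts with known changes. These were drawn around group means without the GC trend of the libraries, so that run does not show how the fit handles that trend.

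Members and lists were chosen with earlier results of these data known. Named genes come from a rule: ETV4, ETV1 and ETV5, the 30 largest called rises and falls with at least 5 CPM in a group and libraries apart, the 10 most abundant called genes each way, called list members and up to 3 abundant uncalled ones, and the 8 largest differences each way from ETV4WT and from 22Rv1; a selection is named. Cell type markers are named from their own list. The gene lists overlap in part.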

Additional observations from a re-analysis of the deposited data

Results flagged for a closer look

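Among a part of the named genes picked for comparison between lines, the effect of ETV4AAA against eGFP differed between 22Rv1 and PC3 for 25. The test was a direct one of that difference (edgeR's quasi-likelihood test, adjusted over all genes). Named genes outside that part, such as ETV4, can also differ and are not listed here. Values are the log2 effect in 22Rv1 minus that in PC3, with 2 libraries in each of the 4 groups. Among genes that rose in PC3, the effect in 22Rv1 was more negative for LRRC15 (-11.1), AOX1 (-4.27), CACNA2D2 (-4.07), TGM2 (-3.87), E2F8 (-3.09), TBX18 (-2.95), SOCS2 (-2.65), CARD8 (-1.68) and HBEGF (-1.52). The same held for the amino acid response genes CHAC1 (-4.8), ASNS (-3.37), ATF3 (-2.27) and CTH (-0.844). Rises were larger in 22Rv1 for the ERK feedback genes DUSP6 (5.51) and SPRY4 (4.49), for FBN1 (3.8) and for TM4SF1 (1.44). Among genes that fell in PC3, the effect was more positive in 22Rv1 for GDF15 (6.93), CLDN1 (6.93), BAMBI (4.84), OAS1 (4.21), S100P (3.92), CREB3L1 (3.91), DKK1 (3.41) and CDH1 (1.13). The largest adjusted p among the 25 was that of CTH, 0.0107. Groups of 2 libraries were not examined for single outlying values.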

How the results depend on the processing

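Against eGFP in PC3, 858 genes were called, and 2152 were with no low-count filter, 283 with glmTreat against a log2 change of 0.5, 466 with only the PC3 libraries and 362 with only the groups compared. GC correction, added after seeing the data, gave 2057. Leaving out 1 library gave 213 to 2253. For ETV4AAA against ETV4WT (2550 genes) the counts were 1167 with glmTreat, 1657 with only the PC3 libraries, 959 with only the groups compared, 1341 without both replicate 2 libraries carrying ETV4, 5597 with GC correction, and 1648 to 1887 with 1 library left out. For 22Rv1 (7395 genes) glmTreat gave 4135, and 1 library left out gave 5259 to 5423. For the difference between lines (3766 genes) glmTreat gave 2265, GC correction 6800, and 1 library left out 2317 to 4685. Other counts stayed within 1.5 times. The replicate numbers have no batch or day stated for them. With a replicate block 868, 2517, 7421 and 4066 genes were called in these comparisons, and the difference of replicate 1 from 2 in PC3 ETV4AAA correlated across 11525 genes, which are not independent, at -0.371 with that in PC3 eGFP, 0.895 with PC3 ETV4WT, 0.79 with 22Rv1 eGFP, 0.593 with 22Rv1 ETV4AAA and -0.287 with 22Rv1 ETV4WT. The log2 change of ETV4 was -0.14 without ETV4AAA replicate 1 and 0.86 without replicate 2. The causes were not tested. With 2 libraries a group, small changes and genes under 1 CPM were measured with little precision.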
